A study of Mus musculus with 8 samples.

Results

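The genes described here are 10 transcription factors and regulators of the core and naive pluripotency network of mouse embryonic stem cells (mESCs): Pou5f1, Sox2, Nanog, Esrrb, Zfp42, Tbx3, Dppa3, Gbx2, Tfcp2l1 and Prdm14. They were chosen by name, and all 10 were found among the 13056 gene identifiers of a table on sorted cells and among the 14319 of a table on overexpressing cells. RNA-seq had been made from 8 samples of 4 conditions, with 2 samples per condition. KLF3 is a zinc finger factor of the Krüppel-like family. The comparisons ask how the pluripotency genes differ where a reporter fusion of part of KLF3 is present, or where KLF3 expression is forced.

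In the first experiment, mESCs positive or negative for KLF3-GFP were sorted, 500 cells per sample, and sequenced by Smart-seq2, which amplifies full-length cDNA from few cells. Both groups came from a line made from picked colonies that carried PB-CAGGS-Klf3-GFP-EF1α-DsRed. This construct fuses the N-terminal part of KLF3, without its DNA-binding domain, to Emerald GFP under the CAGGS promoter, and marks the cells with DsRed. The reporter protein therefore lacks the part that would bind DNA, in both groups. In the second experiment, the R26 line, which carries R26-M2rtTA, had received GFP or a codon-optimized Klf3 at its Col1a1 FRT site, correct clones were picked, and expression was induced with doxycycline for 72 h before poly(A) RNA was sequenced. Both controls and cases of this experiment carry the transactivator and an inserted transgene. All samples were labelled as mESCs from a cross of C57BL/6(F) with 129/sv(M) and were grown in serum with LIF (leukaemia inhibitory factor) on gelatin.

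The values are FPKM, fragments per kilobase of transcript, scaled to the mapped fragments of the library. The authors deposited 1 value per gene and condition, their mean of the replicates. No SD, interval or test can therefore stand beside a value, the spread between replicates and the depth are unknown, and these columns allow no replicate check of a difference. Differences are given on the log2(FPKM + 1) scale, which understates those of genes with low values, and a gene is counted as lower or higher when it is past 2-fold on this scale and its mean over the 2 conditions reaches 1 FPKM. Over all genes that reach this mean, the median difference was 0.03 in sorted cells (9212 genes) and -0.18 in overexpressing cells (11179 genes). In bulk RNA, fewer cells expressing a gene and less RNA per cell cannot be told apart.

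OCT4 (the product of Pou5f1), SOX2 and NANOG form the core of the pluripotency network and bind, often together, at their own genes and those of the other factors. ESRRB, TFCP2L1, TBX3, GBX2, PRDM14 and KLF4 make up the naive layer around this core, which LIF feeds through STAT3 and which inhibition of GSK3 feeds by lifting repression through TCF7L1. Zfp42 (encoding REX1) and Dppa3 (encoding STELLA) are widely used to mark the naive state, and in serum many of these genes are known to vary from cell to cell.

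RefSeq promoters on GRCm38.p6 were given for 7 of the 10 genes, from 250 bases before to 50 bases after the start of the transcript, and 5 of them are shown: those of the 3 core genes, that of Gbx2, whose differences have opposite signs in the experiments, and that of Zfp42, the only window with a full octamer. Capitals mark the KLF core (CACCC, or GGGTG on the other strand), which Krüppel-like factors are known to bind, the octamer core (ATGCAAA or TTTGCAT) of POU factors such as OCT4, and a core of SOX factors (ACAATG or CATTGT). Tbx3, Dppa3 and Prdm14 had no entry. Pou5f1, Nanog and Esrrb had a second window each, and for Pou5f1 and Nanog only the first is shown. The windows are chr17:35505782-35506081 on the plus strand for Pou5f1, chr3:34649745-34650044 on the plus strand for Sox2, chr6:122707239-122707538 on the plus strand for Nanog, chr8:43306960-43307259 on the minus strand for Zfp42 and chr1:89931127-89931426 on the minus strand for Gbx2, each written 5′ to 3′ along the gene.
Pou5f1: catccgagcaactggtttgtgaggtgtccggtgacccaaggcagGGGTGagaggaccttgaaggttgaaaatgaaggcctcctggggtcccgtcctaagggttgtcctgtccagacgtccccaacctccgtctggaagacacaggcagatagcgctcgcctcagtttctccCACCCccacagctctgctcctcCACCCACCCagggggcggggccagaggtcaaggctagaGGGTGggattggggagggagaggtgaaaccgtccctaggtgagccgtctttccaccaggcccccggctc
Sox2: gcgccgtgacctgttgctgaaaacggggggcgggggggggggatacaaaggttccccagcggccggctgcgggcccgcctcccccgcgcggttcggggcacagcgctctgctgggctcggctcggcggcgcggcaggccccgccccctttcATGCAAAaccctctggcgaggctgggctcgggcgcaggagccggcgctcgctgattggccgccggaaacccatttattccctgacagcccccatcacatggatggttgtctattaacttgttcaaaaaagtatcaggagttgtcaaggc
Nanog: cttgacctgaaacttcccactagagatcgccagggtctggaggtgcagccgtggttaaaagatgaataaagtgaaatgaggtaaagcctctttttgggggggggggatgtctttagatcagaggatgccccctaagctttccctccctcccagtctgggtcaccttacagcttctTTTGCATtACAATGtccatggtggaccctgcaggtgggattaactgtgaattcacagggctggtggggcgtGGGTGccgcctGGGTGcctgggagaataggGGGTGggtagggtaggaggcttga
Zfp42: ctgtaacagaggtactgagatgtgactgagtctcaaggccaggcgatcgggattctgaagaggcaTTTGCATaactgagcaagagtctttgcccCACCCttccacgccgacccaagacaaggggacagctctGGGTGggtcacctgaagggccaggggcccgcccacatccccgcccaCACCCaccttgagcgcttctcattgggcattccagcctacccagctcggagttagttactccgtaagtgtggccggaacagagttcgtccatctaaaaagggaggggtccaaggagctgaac
Gbx2: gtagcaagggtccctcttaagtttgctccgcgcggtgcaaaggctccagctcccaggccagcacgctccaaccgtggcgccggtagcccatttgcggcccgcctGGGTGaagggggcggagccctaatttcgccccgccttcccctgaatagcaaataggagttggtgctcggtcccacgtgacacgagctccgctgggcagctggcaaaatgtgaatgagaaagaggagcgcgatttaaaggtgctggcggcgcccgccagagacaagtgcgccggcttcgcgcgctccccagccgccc

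The Pou5f1 window shown held 5 KLF cores, of which a pair shares a base, and 1.02% of 32851 RefSeq promoters of this length held at least as many. Its second window, not printed, held 1 KLF core and 1 SOX core, the latter at position -158 from its start site. Nanog and Zfp42 held 3 each, Gbx2 held 1 and Sox2 held 0, while 57.5% of all promoters held at least 1. The octamer core, found in 4.63% of all promoters, was present in Sox2, starting 99 bases before the start site, in Nanog and in Zfp42. In Zfp42 it belonged to a full octamer (ATGCAAAT), which 1.74% of promoters held. In Nanog the octamer core and a SOX core, which 12.6% of promoters held, stood side by side with a single base between them, at positions -75 and -67 from the start site. Esrrb, not printed, held 2 KLF cores and 1 SOX core in its first window, and 1 KLF core in its second. Tfcp2l1, not printed, held 1 KLF core in its only window. Letters in a window are a description of sequence and do not show that a factor binds there.

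**Figure D1:**
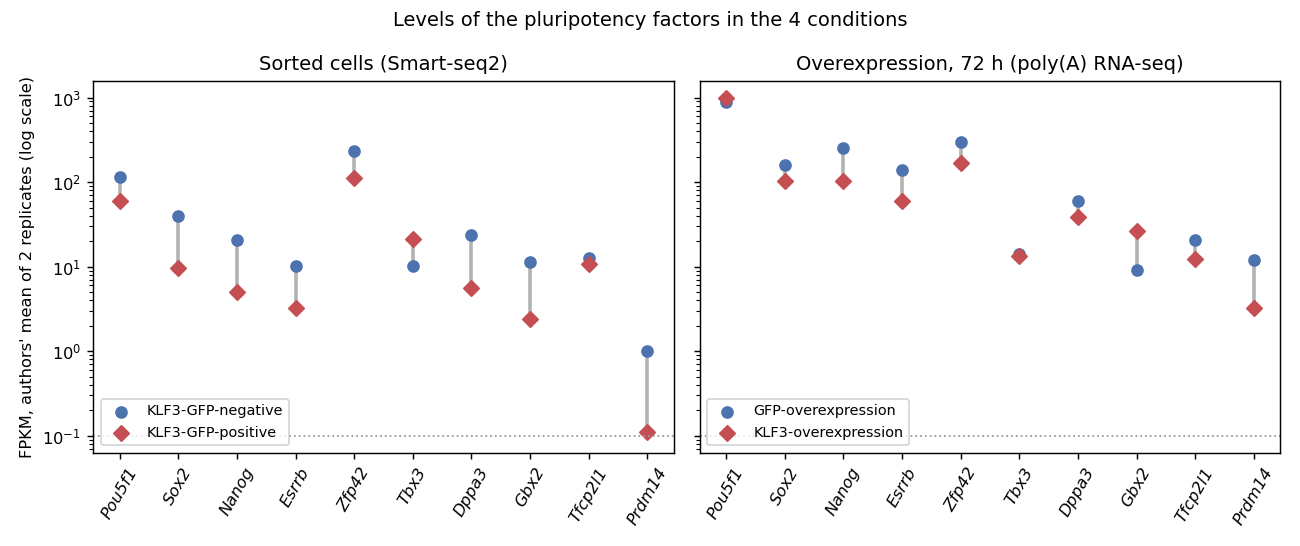
Level of each pluripotency factor in FPKM (authors' mean of the replicates, log scale) in KLF3-GFP-negative and KLF3-GFP-positive mESCs (left) and in GFP-overexpressing and KLF3-overexpressing mESCs (right), with a grey line joining both conditions and a dotted line at 0.1 FPKM, the lowest value of the tables. KLF3-GFP-positive cells lie below KLF3-GFP-negative cells for every factor but Tbx3, and on overexpression the widest gaps are those of Prdm14, Gbx2 and Nanog. No error bars are drawn because only means were deposited.

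Of the 3 core genes, Sox2 and Nanog were past 2-fold lower in KLF3-GFP-positive mESCs, where 8.32% of all genes were, and Pou5f1 was within 2-fold. Sox2 stood at 39.4 FPKM in KLF3-GFP-negative mESCs and 9.64 FPKM in KLF3-GFP-positive mESCs, and at 157 FPKM in GFP-overexpressing and 104 FPKM in KLF3-overexpressing mESCs. It was thus at 24.5% of the control level in sorted cells (log2 difference -1.92) and at 65.8% on overexpression (-0.60), where it did not pass the 2-fold limit. In 3 of 10 settings of scaling, pseudocount and trend Sox2 did pass it on overexpression. Among these were an equal sum of FPKM and scaling to Actb, with which 24.9% and 45.1% of all genes were lower. Nanog stood at 20.8 and 5.03 FPKM in KLF3-GFP-negative and KLF3-GFP-positive mESCs, and at 255 and 103 FPKM in GFP-overexpressing and KLF3-overexpressing mESCs. Nanog, which encodes a homeobox protein that stabilizes self-renewal, was the core gene with an RNA difference past 2-fold in both experiments, -1.85 in sorted cells and -1.30 on overexpression.

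Pou5f1 stood at 115 FPKM in KLF3-GFP-negative mESCs and 59.4 FPKM in KLF3-GFP-positive mESCs, and at 883 FPKM in GFP-overexpressing and 989.7 FPKM in KLF3-overexpressing mESCs. OCT4 is the POU factor without which pluripotent cells cannot be kept, and its transcript stayed within 2-fold in both experiments. Its difference was -0.94 in sorted cells, just inside the limit, and with another scaling of the columns (quantile normalization, an equal sum of FPKM, an equal sum without ribosomal protein genes, or Actb) it was past the limit there. Its difference on overexpression, 0.16, lay below 0 with quantile normalization, both scalings to an equal sum, scaling to Actb and removal of the trend with genomic span, so that its direction is not given.

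The balance within the core differed accordingly. The ratio of Pou5f1 to Nanog was 5.51 in KLF3-GFP-negative mESCs and 11.8 in KLF3-GFP-positive mESCs, and 3.47 in GFP-overexpressing and 9.65 in KLF3-overexpressing mESCs. The ratio of Sox2 to Nanog was 1.89 and 1.92 in sorted cells and 0.619 and 1.01 on overexpression. Such ratios do not change when a column is multiplied by a factor, though quantile normalization changes them. Sox2 and Nanog thus kept their proportion in sorted cells, while Pou5f1 gained on Nanog in both experiments.

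Among the naive factors, Esrrb was the only one past 2-fold lower in both experiments. Esrrb stood at 10.1 and 3.21 FPKM in KLF3-GFP-negative and KLF3-GFP-positive mESCs (-1.40) and at 138 and 60.3 FPKM in GFP-overexpressing and KLF3-overexpressing mESCs (-1.18). ESRRB is an orphan nuclear receptor that can stand in for NANOG in self-renewal. On overexpression, Esrrb was within 2-fold with median-ratio scaling (-0.97) and with the trends of transcript length (-0.84) or genomic span (-0.73) removed, and its gene spans 160512 bases, the widest of the 10.

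Tfcp2l1, a target of the LIF and STAT3 pathway that helps to keep cells naive, stayed within 2-fold in both experiments. It stood at 12.5 and 10.6 FPKM in KLF3-GFP-negative and KLF3-GFP-positive mESCs (-0.22) and at 20.8 and 12.4 FPKM in GFP-overexpressing and KLF3-overexpressing mESCs (-0.70). Scaling to Actb put it past the limit in sorted cells (-1.16) and on overexpression (-1.52), and an equal sum of FPKM did so on overexpression (-1.12). These settings shift all genes: with Actb 40.6% of all genes were lower in sorted cells and 45.1% on overexpression. With an equal sum 24.9% were lower on overexpression. In sorted cells 35.7% of all genes tested had a lower difference, which places Tfcp2l1 well inside the bulk of genes.

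Zfp42 had the highest level of the 10 in both groups of sorted cells, 235 FPKM in KLF3-GFP-negative mESCs and 111 FPKM in KLF3-GFP-positive mESCs (-1.07). On overexpression it stood at 295 FPKM with GFP and 166 FPKM with KLF3 (-0.82), within 2-fold, though past the limit in 4 of 10 settings of scaling, pseudocount and trend. An equal sum of FPKM and scaling to Actb, which put 24.9% and 45.1% of all genes lower, were among these. The proportion of Zfp42 to Pou5f1 was 2.05 and 1.87 in sorted cells, and 0.334 and 0.168 on overexpression. Dppa3 encodes a protein that shields DNA methylation after fertilization, and was among the genes with the lowest differences in sorted cells. Dppa3 stood at 23.4 and 5.53 FPKM in KLF3-GFP-negative and KLF3-GFP-positive mESCs (-1.90), where 1.23% of genes had a lower difference, and at 59.0 and 38.3 FPKM in GFP-overexpressing and KLF3-overexpressing mESCs (-0.61).

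Gbx2 was past 2-fold in opposite directions in the 2 experiments, and was the only factor of the 10 to be so. It encodes a homeobox factor that LIF and STAT3 induce and that supports self-renewal when forced. Gbx2 stood at 11.2 FPKM in KLF3-GFP-negative mESCs and 2.37 FPKM in KLF3-GFP-positive mESCs (-1.86). On overexpression it stood at 9.17 FPKM with GFP and 26.7 FPKM with KLF3 (1.45), a difference that 1.99% of genes exceeded and that fell within 2-fold only with scaling to Actb (0.63). The noncoding gene D130058E05Rik lies on the opposite strand over 43.5% of the exonic bases of Gbx2. Smart-seq2 does not mark strand, so reads of this pair cannot be told apart in sorted cells. The overexpression libraries were made with a directional kit, but the methods give default settings unless stated otherwise, and Cufflinks does not use strand by default.

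Tbx3, a T-box factor of the naive network that is also known from extraembryonic endoderm, was the only factor with a higher level in KLF3-GFP-positive mESCs. Tbx3 stood at 10.1 and 21.4 FPKM in KLF3-GFP-negative and KLF3-GFP-positive mESCs, a difference of 1.02, and at 14.25 and 13.5 FPKM in GFP-overexpressing and KLF3-overexpressing mESCs, a difference of -0.07. Its difference in sorted cells stayed above 0 in all 10 settings of scaling, pseudocount and trend, yet past 2-fold in only 3 of them, and was 0.06 with scaling to Actb. On overexpression its sign turned with median-ratio scaling, quantile normalization and removal of the trends with genomic span or transcript length. Relative to Tbx3, Nanog went from 2.06 to 0.235 and Gbx2 from 1.11 to 0.111 between KLF3-GFP-negative and KLF3-GFP-positive mESCs.

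Prdm14 had the lowest level of the 10 in sorted cells and was not counted there. It stood at 1.0 FPKM in KLF3-GFP-negative mESCs and 0.11 FPKM in KLF3-GFP-positive mESCs, the latter next to the lowest value of the table, 0.1. On overexpression it stood at 11.9 FPKM with GFP and 3.20 FPKM with KLF3, and its difference of -1.61 was the lowest of the 10, with 1.55% of all genes lower still. PRDM14 recruits polycomb complexes and, in naive cells, represses Dnmt3b and FGF receptor signalling.

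Counted together, 6 of the 9 factors tested in sorted cells were past 2-fold lower in KLF3-GFP-positive mESCs (Sox2, Nanog, Esrrb, Zfp42, Dppa3 and Gbx2), against 8.32% of all genes, and their median difference was -1.40. These 6 were past the limit in all 10 settings. The 1 factor counted as higher, Tbx3, makes up a share near the 13.8% of all genes that were higher. On overexpression, 3 of 10 were past 2-fold lower (Nanog, Esrrb and Prdm14), against 10.1% of all genes, and 1 was higher (Gbx2), against 6.6%. The median of the 10 was -0.65, which is -0.48 relative to the median of all genes. Nanog and Prdm14 were past the limit in all 10 settings, and Gbx2 in 9. The summed FPKM of the 10 factors was 478 in KLF3-GFP-negative mESCs and 229 in KLF3-GFP-positive mESCs, and 1843 with GFP and 1517 with KLF3 overexpression. Pou5f1 and Zfp42 made up most of each sum.

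**Figure D2:**
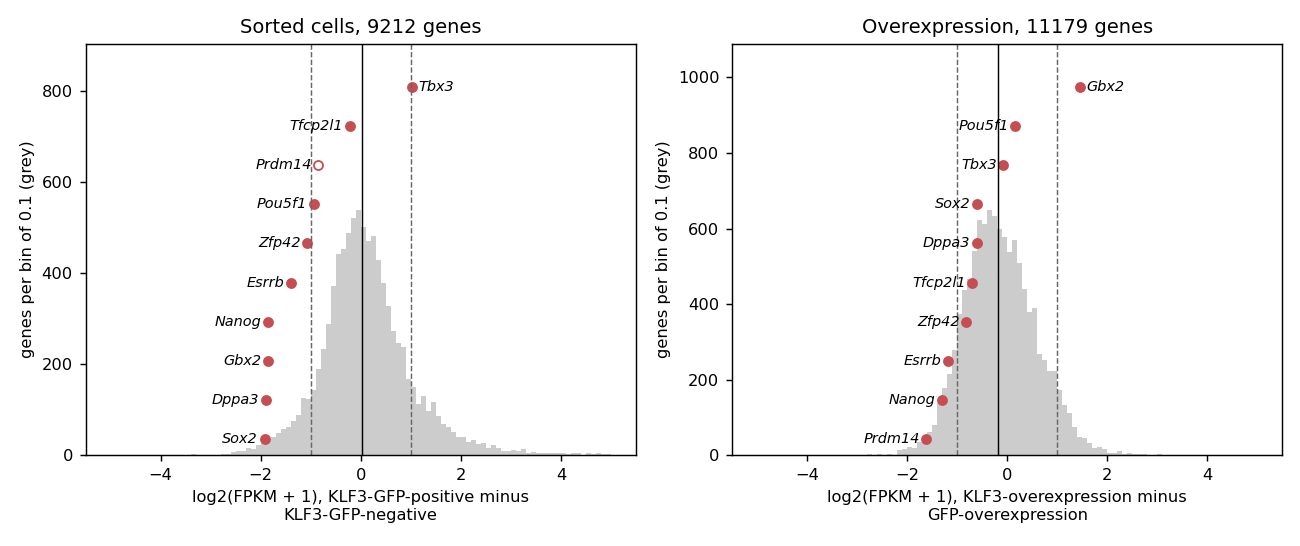
Difference of log2(FPKM + 1) of each factor (red points, ordered by value, their height has no meaning) over the distribution of all tested genes (grey, genes per bin of 0.1, with differences beyond its ends counted in the end bins), for sorted cells (left) and overexpression (right). The solid line is the median of all genes, 0.03 and -0.18, the dashed lines mark 2-fold, and the open point is Prdm14, whose mean is under 1 FPKM in sorted cells. In sorted cells 6 filled points lie left of the lower dashed line, against 3 on overexpression, where the positions of Pou5f1 and Tbx3 to either side of 0 depend on the scaling.

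Side by side, Nanog and Esrrb were past 2-fold lower in both experiments. Sox2, Zfp42, Dppa3, Tfcp2l1 and Prdm14 were also lower in both in the columns as deposited, Prdm14 with a mean under 1 FPKM in sorted cells. The shares of all genes lower in both or opposite in sign were not computed, and the median of all genes on overexpression was itself -0.18. These patterns are therefore a description of the 10 factors only. The remaining 3, Pou5f1, Tbx3 and Gbx2, differed in sign, though the signs of Pou5f1 and Tbx3 on overexpression turned with the scaling. In KLF3-GFP-negative mESCs the factors ranked, from the highest, as Zfp42, Pou5f1, Sox2, Dppa3, Nanog, Tfcp2l1, Gbx2, Esrrb, Tbx3 and Prdm14. In KLF3-GFP-positive mESCs Tbx3 and Tfcp2l1 took the third and the fourth place, ahead of Sox2, Dppa3 and Nanog. On overexpression Pou5f1, Zfp42, Nanog, Sox2, Esrrb and Dppa3 held the upper places in this order with GFP, and with KLF3 Nanog and Sox2 changed places (103 and 104 FPKM) and Gbx2 moved from the last to the seventh place. Whether neighbours in these orders differ beyond the spread between replicates is unknown. Sorted and overexpressing cells were prepared by different protocols, so levels were not compared across them.

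**Figure D3:**
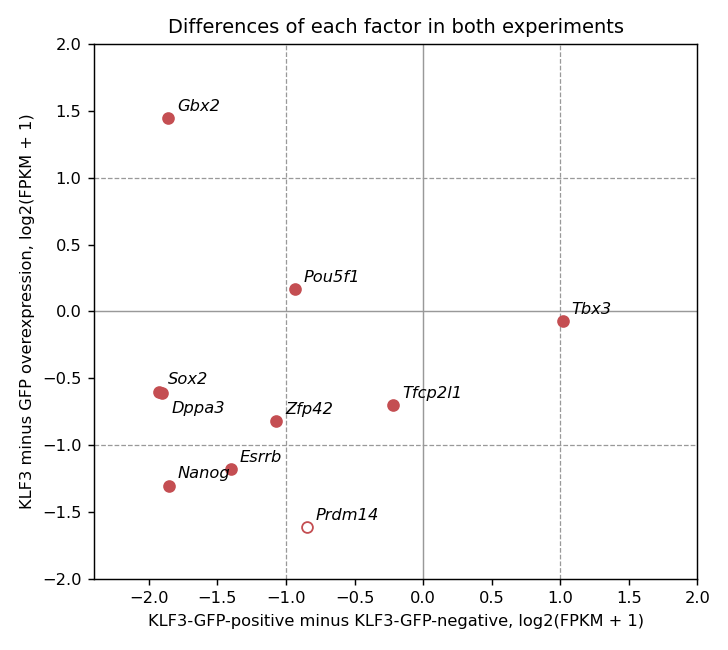
Difference of log2(FPKM + 1) of each factor in sorted cells (horizontal axis, KLF3-GFP-positive minus KLF3-GFP-negative) against that on overexpression (vertical axis, KLF3 minus GFP), with dashed lines at 2-fold. Nanog and Esrrb lie past 2-fold lower on both axes, Gbx2 lies at -1.86 and 1.45, and Prdm14 (open) had a mean under 1 FPKM in sorted cells. The vertical positions of Pou5f1 (0.16) and Tbx3 (-0.07) change sign with the scaling.

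The other genes of the network, 59 genes in 5 lists without the 10 factors, held lower genes in both experiments. Of 52 tested in sorted cells, 16 were past 2-fold lower and 3 higher, against 8.32% and 13.8% of all genes. Of 57 tested on overexpression, 11 were lower and 3 higher, against 10.1% and 6.6%. More than any other list, the markers held the lower genes of the sorted cells. Of 15 other markers of pluripotent cells, 9 were lower and 0 higher (median -1.20), with Jam2, an adhesion molecule, at 92.1 and 16.3 FPKM, Tdgf1, the NODAL co-receptor, at 324 and 68.9 FPKM, and Gdf3, a TGF-beta family ligand, at 36.2 and 7.77 FPKM in KLF3-GFP-negative and KLF3-GFP-positive mESCs. On overexpression 1 of 15 was lower and 1 higher (median -0.38).

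Of the other naive and core transcription factors, 5 of 14 were lower and 0 higher in sorted cells (median -0.75), among them Nr0b1, which encodes DAX1, from 16.3 to 4.78 FPKM. On overexpression 4 of 16 were lower and 1 higher (median -0.03). There Klf5, a Krüppel-like factor of naive cells, stood at 39.9 FPKM with GFP and 14.9 FPKM with KLF3, and Nr5a2, a nuclear receptor that can drive Pou5f1, at 12.7 and 4.58 FPKM. Klf5 stood at 20.7 and 34.9 FPKM in KLF3-GFP-negative and KLF3-GFP-positive mESCs, a difference of 0.72 and within 2-fold.

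The signalling arms that feed the naive factors held few genes past 2-fold in sorted cells, in shares near the 8.32% lower and 13.8% higher of all genes. In the LIF, JAK and STAT3 arm, 1 of 8 genes was lower and 1 higher in sorted cells (median 0.26), namely Pim3, a STAT3 target kinase, at 25.8 and 9.91 FPKM, and Lifr, the LIF receptor, at 3.32 and 8.25 FPKM. On overexpression, where 10.1% of all genes were lower and 6.6% higher, 2 of 9 were lower and 0 higher (median -0.82). The differences of all 9 were below 0, where the median of all genes was -0.18 and the share of all genes below 0 was not computed. The 2 lower genes were Il6st, at 9.8 FPKM with GFP and 4.05 FPKM with KLF3, and Klf4, at 47.0 and 20.2 FPKM. Klf4 is the factor through which STAT3 reaches Sox2. In the TCF7L1 and beta-catenin arm, 0 of 6 were lower and 1 higher in sorted cells (median 0.36), while 2 of 8 were lower and 0 higher on overexpression (median -0.28). The latter 2 were Apc, part of the complex that degrades beta-catenin, at 7.51 and 2.0 FPKM, and Ctnnb1, beta-catenin itself, at 163 and 70.3 FPKM. Axin1 of the same complex stood at 21.4 and 12.3 FPKM, within 2-fold. Ctnnb1 was the gene counted as higher in sorted cells, at 6.79 and 15.7 FPKM.

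A list of PRDM14 partners, genes of polycomb complex PRC2 and the DNA methyltransferases Dnmt3a and Dnmt3b had 1 of 9 genes lower and 1 higher in sorted cells (median -0.57), against 8.32% and 13.8% of all genes, and 2 of 9 lower and 1 higher on overexpression (median -0.45), against 10.1% and 6.6%. The genes past 2-fold in sorted cells were both methyltransferases, and 0 were partners or PRC2 genes. Dnmt3b stood at 6.15 and 20.4 FPKM and Dnmt3a at 44.5 and 18.9 FPKM in KLF3-GFP-negative and KLF3-GFP-positive mESCs. On overexpression Dnmt3a was the higher gene, at 23.2 FPKM with GFP and 50.1 FPKM with KLF3. Dnmt3b stayed within 2-fold there, at 13.53 FPKM with GFP and 16.95 FPKM with KLF3 (0.30). Suz12, a PRC2 subunit, stood at 37.6 FPKM with GFP and 15.75 FPKM with KLF3.

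The epiblast and formative list, whose genes take over as naive factors are lost in development, had 6 genes tested in sorted cells, 2 of them lower and 0 higher (median -0.79), against 8.32% and 13.8% of all genes. On overexpression it had 9, 1 lower and 0 higher (median 0.25), the former a share near the 10.1% of all genes. Foxp1 stood at 29.4 and 8.48 FPKM and Etv5 at 12.0 and 4.01 FPKM in KLF3-GFP-negative and KLF3-GFP-positive mESCs, and Zic2 at 3.91 and 0.42 FPKM with GFP and KLF3 overexpression.

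**Figure D4:**
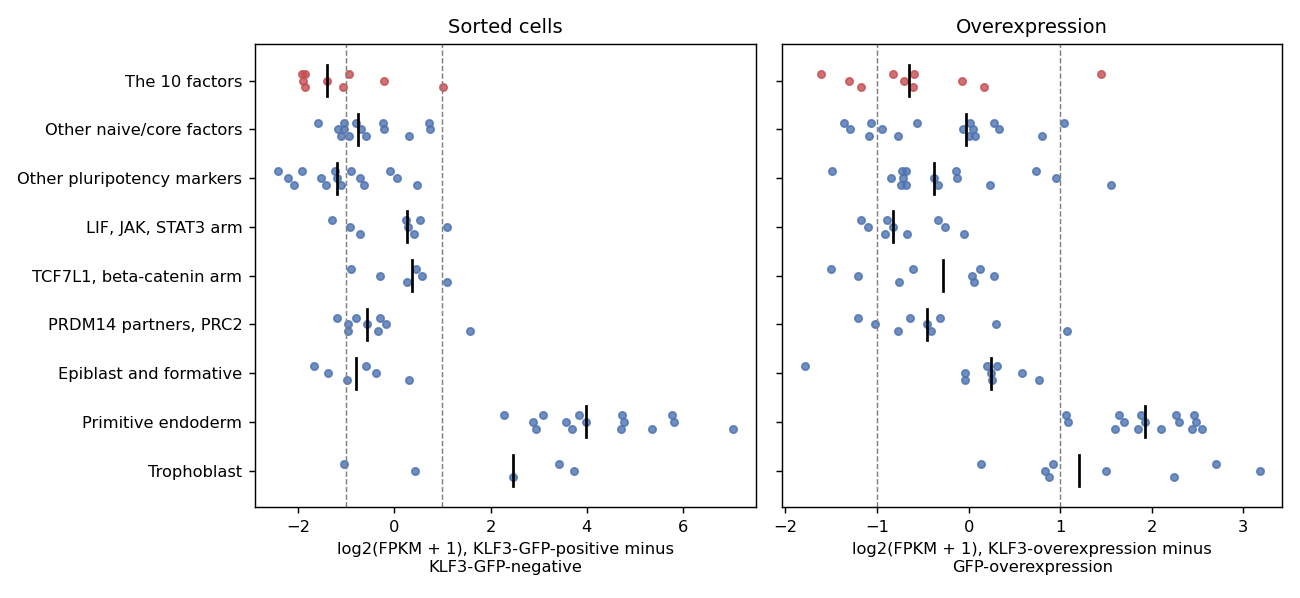
Difference of log2(FPKM + 1) of every tested gene (points) of the 10 factors (red) and of 8 lists of other genes (blue), with the median of each list as a black bar and dashed lines at 2-fold, for sorted cells (left) and overexpression (right), whose horizontal axes have different ranges. The medians of the 10 factors are -1.40 and -0.65, and those of the primitive endoderm markers are 3.98 and 1.93, with each tested gene of the latter list past 2-fold higher in both panels. Part of these markers reached the mean of 1 FPKM only through the condition in which they were high.

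Markers of primitive endoderm, the extraembryonic lineage beside the epiblast in the blastocyst, were higher in both experiments. Of 15 tested in sorted cells 15 were past 2-fold higher (13.8% of all genes), their summed FPKM was 27.9 in KLF3-GFP-negative mESCs and 1094 in KLF3-GFP-positive mESCs, and Dab2, an endocytic adaptor, stood at 0.78 and 233 FPKM, Col4a1, a collagen of the basement membrane, at 1.47 and 138 FPKM, and Amn, a receptor subunit of the visceral endoderm, at 2.39 and 185 FPKM. Of the 16 markers listed, 3 stood at the lowest value in KLF3-GFP-negative mESCs and 0 in KLF3-GFP-positive mESCs. Sox7, Foxa2, Pdgfra, Dab2, Lama1, Col4a2, Cubn and Lrp2 were each under 1 FPKM in KLF3-GFP-negative mESCs. They reached the mean of 1 FPKM only through KLF3-GFP-positive mESCs, where they were high, so being counted favoured a call as higher. On overexpression 15 of 15 were also higher (6.6% of all genes), with a summed FPKM of 116 with GFP and 527 with KLF3, and 0 of 16 at the lowest value in either column. Sox7, Foxa2 and Pdgfra were under 1 FPKM with GFP and reached the mean only through KLF3 overexpression. The list was written with earlier results of these data known. The part of the primitive endoderm markers in the lower levels of the pluripotency factors was not tested.

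The shares of all genes beside the counts of the following lists are 8.32% lower and 13.8% higher in sorted cells, and 10.1% lower and 6.6% higher on overexpression. Of the trophoblast markers, 3 of 5 tested were higher and 1 lower in sorted cells (summed FPKM 35.6 and 398), and 4 of 8 were higher and 0 lower on overexpression (73.2 and 542). Krt8 and Krt18, keratins also made in other epithelia and in primitive endoderm, carried most of these sums, at 18.3 and 206 FPKM and at 12.7 and 183 FPKM in KLF3-GFP-negative and KLF3-GFP-positive mESCs, and Plac1 stood at the lowest value and at 5.11 FPKM. The defining factor Cdx2 stood at the lowest value in KLF3-GFP-negative and at 0.57 FPKM in KLF3-GFP-positive mESCs. Plac1 in both experiments, and Hand1 on overexpression, reached the mean of 1 FPKM only through the condition in which they were counted as higher. Of the fibroblast and feeder markers, 1 was tested in sorted cells and 0 were past 2-fold, and on overexpression 1 of 3 was lower, Fn1 (163 and 62.1 FPKM), beside S100a4 (1.06 and 2.98 FPKM) and Thy1 (2.72 and 3.14 FPKM), while Col1a1 was at most 0.29 FPKM. Germ layer markers summed to 7.78 and 3.50 FPKM in sorted cells, with 1 of 3 lower, and to 18.2 and 10.3 FPKM on overexpression, with 1 of 4 lower, Pax6 in both experiments (5.40 and 0.45 FPKM on overexpression), beside Nes at 6.29 and 3.80 FPKM. Eomes, also in the trophoblast list, stood at 0.83 and 1.48 FPKM in sorted cells. Of the 2-cell-like markers, 1 was tested in sorted cells, Eif1a (38.99 and 40.3 FPKM), and 0 were past 2-fold. Zscan4c stood at 0.21 and 0.1 FPKM there and was not tested, so Zscan4 genes could not be judged in sorted cells. On overexpression 1 of 4 was lower, Zscan4f (3.17 and 0.68 FPKM), with Zscan4c at 2.41 and 1.27 FPKM and Zscan4d at 1.63 and 0.77 FPKM. The part of these markers in the values of the pluripotency factors was not tested.

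Values of the whole columns also moved with the conditions. Klf3 stood at 107 and 122 FPKM in KLF3-GFP-negative and KLF3-GFP-positive mESCs. Both of these groups carry Klf3 sequence in the reporter, so these values may include its transcript beside that of the endogenous gene. With GFP and KLF3 overexpression Klf3 stood at 58.7 and 47.8 FPKM, where the codon-optimized sequence need not be counted. Genes encoding ribosomal proteins held 30.6% and 26.3% of the FPKM in sorted cells, and 29.0% and 39.0% with GFP and KLF3 overexpression. Of 3 genes of chromosome Y, Eif2s3y stood at 30.9 FPKM with GFP and 1.67 FPKM with KLF3 overexpression, and Uty and Ddx3y stood at 3.56 and 3.34 FPKM with GFP and at the lowest value with KLF3. Of 6 control genes, 1 was past 2-fold in sorted cells, Actb (4265 and 8659 FPKM, with Hsp90ab1 at 3145 and 2285 FPKM), and 1 on overexpression, Tbp (37.8 and 14.4 FPKM). Actb stood at 678 FPKM with GFP and 1240 FPKM with KLF3 overexpression (0.87), within 2-fold. The part of these differences in the values of the pluripotency factors was not tested, and clone and transgene cannot be told apart on overexpression.

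The pluripotency factors were set beside the genes near them on the chromosome. Nanog (ENSMUSG00000012396, chr6:122707489-122714633 on mm10, plus strand) and Dppa3 (ENSMUSG00000046323, chr6:122626410-122630272, plus strand) lie in 1 cluster with Gdf3 and Slc2a3. Dppa3, Gdf3 and Nanog were all past 2-fold lower in KLF3-GFP-positive mESCs, while Slc2a3, a glucose transporter gene 13176 bases beyond Nanog, stood at 40.2 FPKM in KLF3-GFP-negative mESCs and 172 FPKM in KLF3-GFP-positive mESCs (2.07). On overexpression Gdf3 stood at 49.0 and 44.5 FPKM and Slc2a3 at 192 and 135 FPKM, and of these 4 genes Nanog alone was past 2-fold. Over all genes within 100 kb of a factor, without the 10 themselves, 2 of 8 tested were lower and 3 higher in sorted cells (median 0.05), against 8.32% and 13.8% of all genes, and 2 of 14 were lower and 1 higher on overexpression (median -0.10), near the 10.1% and 6.6% of all genes. Ncoa2, the neighbour of Prdm14 (ENSMUSG00000042414, chr1:13113457-13127163, minus strand), stood at 0.34 and 1.75 FPKM in sorted cells and at 2.91 and 0.69 FPKM on overexpression. In each experiment Ncoa2 reached the mean of 1 FPKM only through the condition in which it was high, as did Sfta2 near Pou5f1 in sorted cells (0.18 and 2.86 FPKM). Ncoa2 and the other neighbours named here were chosen after their values were seen.

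The positions of the other factors on mm10 are chr17:35506018-35510772 for Pou5f1 (ENSMUSG00000024406, plus strand), chr3:34650405-34652461 for Sox2 (ENSMUSG00000074637, plus strand, a single exon within the span of the noncoding gene Sox2ot), chr12:86361117-86521628 for Esrrb (ENSMUSG00000021255, plus strand), chr8:43295068-43307009 for Zfp42 (ENSMUSG00000051176, minus strand), chr5:119670669-119684724 for Tbx3 (ENSMUSG00000018604, plus strand), chr1:89927956-89931179 for Gbx2 (ENSMUSG00000034486, minus strand) and chr1:118627945-118685168 for Tfcp2l1 (ENSMUSG00000026380, plus strand). Antisense genes overlap 14.1% of the exonic bases of Pou5f1 (Gm19553) and 1.74% of those of Tbx3 (Tbx3os1). Pseudogenes at least 95% identical over at least 200 bases exist for Dppa3 (Dppa3-ps on chromosome X, 98.2%), Nanog (Nanog-ps1 on chromosome X, 97.6%) and Zfp42 (Zfp42-ps1 on chromosome 15, 98.1%). With default settings, as the methods state, Cufflinks divides a read aligned to several places evenly among them, so the levels of these 3 genes are uncertain to that extent.

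Genes with the most similar pair of differences were sought for Pou5f1, Nanog and Tbx3 among 3687 genes whose mean reached 10 FPKM in both experiments, by the distance in the plane of both log2 differences. Nanog had few such genes. Within a distance of 0.25 there were 2, Prps1 (73.0 and 18.4 FPKM in sorted cells, 95.5 and 37.8 FPKM on overexpression), at a distance of 0.08, and Hsf2bp at 0.23, followed by Ldhb at 0.33. Pou5f1 had 73 genes within this distance, the nearest being Nup43, Ascc1 and Cnot11, and Tbx3 had 48, the nearest being Sar1b, Ddost and Yipf1. The number of genes within a fixed distance depends on how far out a gene lies. Of all genes tested, 1.32% in sorted cells and 4.07% on overexpression had a lower difference than Nanog, so few genes are to be found around it. The distances describe 2 differences of means and say nothing of shared control.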

How the data were processed

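RNA was sequenced from 8 samples in 4 conditions. The authors aligned reads to mm10 with STAR (2.6.0 per the processing notes of the submitters) using GENCODE, computed FPKM with Cufflinks (version 2.2.1), averaged the replicates and deposited 1 FPKM value per gene and condition, rounded, with 0.1 as the lowest value. Averages allow no test, and depth is unknown.

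From these, differences of log2(FPKM + 1) were computed within each table (Python 3.11.15, pandas 2.3.3). Genes whose mean reached 1 FPKM were counted past 2-fold in either direction. Of several loci of an identifier, that with the highest mean was kept. The factors and lists were chosen with earlier results of these data known. Named were the 10 factors, in each other list the 3 genes with the largest absolute difference in either table, the 3 genes nearest to Pou5f1, Nanog and Tbx3, Klf3, Actb and the chromosome Y genes. Cdx2, Col1a1, Eif1a, Il6st, the sorted-cell values of Klf5, Ctnnb1 and Zscan4c, and the overexpression values of Dnmt3b were added after their values were seen. So were the neighbouring genes and the markers said to reach the mean through only 1 condition. Overlaps came from GENCODE M21, near copies from BLAST 2.17.0 on its transcripts, and promoters from RefSeq (GRCm38.p6). Alternatives were a pseudocount of 0.1, no pseudocount, no minimum, a mean of at least 5 FPKM, a 1.5-fold limit, median-ratio scaling, quantile normalization, equal summed FPKM with and without ribosomal protein genes, and scaling to Actb. Removal of trends with genomic span or transcript length (lowess, fraction 0.3) was added after the data were seen. Only the 2-fold calls were tested on simulated data, with changes well past the limit planted in genes of at least 5 FPKM. Calls near the limit and the other steps were not tested in this way.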

Additional observations from a re-analysis of the deposited data

How the results depend on the processing

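No paired analysis was possible because each deposited column is the mean of both replicates, and for the same reason leaving out a replicate, a replicate block and limma were not run. No factor that was past 2-fold changed sign under any alternative. In sorted cells, the 6 lower factors became 7 with quantile normalization (10.3% of all genes lower), an equal sum (9.16%), an equal sum without ribosomal protein genes (10.3%) or a 1.5-fold limit (18.1%). With scaling to Actb they became 8 (40.6%). The 1 factor counted as higher there (Tbx3) became 0 with median-ratio scaling, quantile normalization, an equal summed FPKM, an equal sum without ribosomal protein genes, scaling to Actb, and removal of the genomic span or transcript length trend. On overexpression, the 3 lower factors became 2 with median-ratio scaling or without the transcript length trend. They became 4 with quantile normalization (6.36% of all genes lower) or an equal sum without ribosomal protein genes (16.6%). With an equal sum (24.9%), scaling to Actb (45.1%) or a 1.5-fold limit (27.2%) they became 7. The 1 higher factor became 0 with Actb.

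Counts of the other network genes that changed by at most 1.5-fold are not listed here. For these genes in sorted cells, the 16 lower became 36 with Actb (40.6% of all genes) and 29 at 1.5-fold (18.1%), and the 3 higher became 1 with quantile normalization or an equal sum without ribosomal protein genes, 0 with Actb and 5 at 1.5-fold. On overexpression, the 11 lower became 5 with median-ratio scaling (6.22% of all genes), 26 with an equal sum, 35 with Actb, 27 at 1.5-fold (shares as above) and 7 without the transcript length trend (6.69%), and the 3 higher became 1 with either equal sum, 0 with Actb, 6 at 1.5-fold and 5 without the length trend. Scalings shift all genes by construction: the median over all genes was -0.82 in sorted cells and -0.91 on overexpression with Actb, and on overexpression 0.00 with median-ratio scaling, -0.56 with an equal sum and -0.37 with an equal sum without ribosomal protein genes, and the calls over all genes there went from 1133 lower and 738 higher to 695 and 1164 with median-ratio scaling. For the removed trends, the cause of the change was not tested.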
